A study of Mus musculus with 12 samples.

Results

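The chemokines and chemokine receptors were described in mouse GMP (granulocyte-monocyte progenitors), cells of the marrow that give rise to neutrophils and monocytes. Members were the probes whose gene name in the scanner files is that of a CC, CXC, XC or CX3C ligand or receptor with a number, which gave 70 of the 39429 probes, for 54 genes (35 ligands and 19 receptors). Of these, 39 probes for 30 genes (18 ligands and 12 receptors) passed the detection rule and were tested, that is, the scanner software marked them as well above background throughout 1 or more of the groups, among 17905 tested genes in all. The 24 other members were not tested and are accounted for below.

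The samples formed 4 groups of one-colour Cy3 arrays, each array hybridised with RNA of sorted GMP. The ko group (n = 4) came from Runx1fl/fl-Tg(vav-Cre) mice, in which Cre, driven by the vav promoter in blood cells, deletes the floxed alleles of Runx1, a DNA-binding transcription factor of blood development. The wt group (n = 4) came from Runx1+/+-Tg(vav-Cre) mice, which carry the same Cre transgene. The RUNX1-ERt2 and ERt2 groups (n = 2 each) are both Runx1-deleted: marrow of Runx1fl/fl-Tg(vav-Cre) donors was taken on day 3 after 150 mg/kg of 5-fluorouracil, infected with a MIG retrovirus that expresses GFP with either RUNX1-ERt2, a RUNX1 fusion activated by tamoxifen, or its hormone-binding part ERt2 alone, and given to lethally irradiated mice. These mice received tamoxifen (49.5 µg/g on 3 days) from week 6 on, and viable GFP-positive GMP were sorted 24 h after it. Tamoxifen went to some of the mice only by the protocol, but each of these 4 samples is labelled with it, and the labels were followed. No label gives the animals' age or sex, or says whether animals were pooled.

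Chemokines are small secreted proteins that draw cells along a gradient, and each is read by one or more receptors of the seven-helix type that signal through inhibitory G proteins. The families are named after the spacing of conserved cysteines near the start of the ligand. In bone marrow, Cxcl12 made by stromal cells holds progenitors and neutrophils through their receptor Cxcr4, Cxcr2 promotes the release of neutrophils, and Ccr2 is needed for monocytes to leave the marrow. Cx3cr1, the receptor of the membrane-bound ligand Cx3cl1, marks monocytes and progenitors of macrophages and dendritic cells.

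Levels are given as log2 processed signal relative to the 75th percentile of the same array, so that 0 is the level of a probe at that percentile, and they are compared only within a probe. The share of probes well above background was 53.5% to 63.1%, no spot was saturated, and arrays of a group correlated at 0.971 to 0.995. Median signals were 40.3 to 54.4 in the transplanted groups and 61.5 to 92.5 in ko and wt. Slide 1 held replicates 1 and 2 of ko and wt, and slide 2 their replicates 3 and 4. RUNX1-ERt2 was on slide 4 and ERt2 on slide 3, so for these the slide and the group cannot be told apart. The Runx1 probe read higher in ko, by 1.69 ± 0.17 (SE; limma, Benjamini-Hochberg adjusted p = 0.00025), and as no source used here places it inside or outside the deleted segment, it does not check the deletion. The labels do not say whether replicate arrays are of different animals, so the p-values rest on a spread between samples that may be technical.

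None of the 5 CXC ligands that draw neutrophils (Cxcl1, Cxcl2, Cxcl3, Cxcl5 and Cxcl15) passed the detection rule in GMP. All but Cxcl1 were well above background on some arrays. Cxcl2 came closest, well above background on 3 ko and 3 wt arrays and on no transplanted array. It lay at −4.58, −8.37, −1.51 and −0.13 on the ko arrays, against −8.28, −3.70, −0.11 and −3.27 on the wt arrays. The highest arrays belonged to both genotypes, and all 3 above −2 lay on slide 2. Of the 24 untested members, 10 were well above background on no array: the ligands Ccl11, Ccl12, Ccl20, Ccl22, Ccl28, Cxcl1 and Cxcl13 and the receptors Ccr1, Cxcr7 and Xcr1. The other 14 reached it on some arrays, up to 8 for Ccr10 and 7 for Cxcl9, and were Ccl7, Ccl8, Ccl26, Ccr4, Ccr8, Ccr10, Cxcl2, Cxcl3, Cxcl5, Cxcl9, Cxcl14, Cxcl15, Cxcl17 and Cxcr5. As they did not pass, no difference is given for them.

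**Figure D1:**
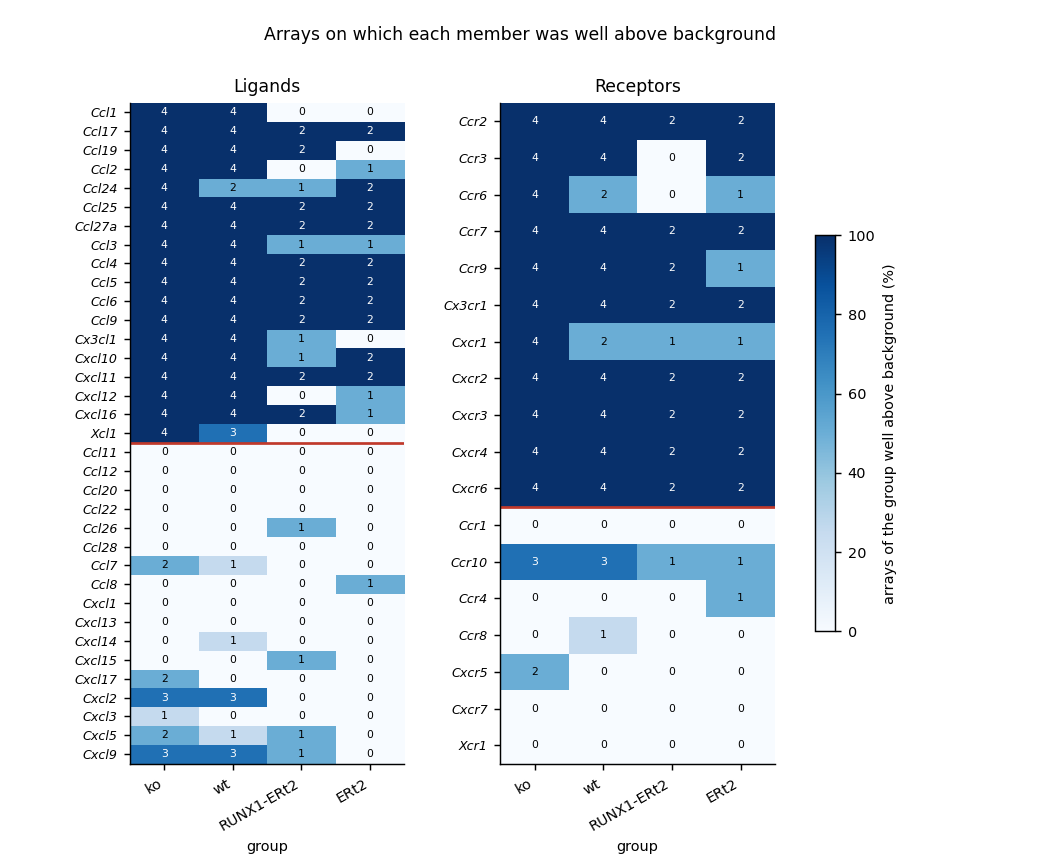
Number of arrays on which each of 53 members was well above background, in each group (numbers in the cells; 4 arrays each for ko and wt, 2 each for RUNX1-ERt2 and ERt2), with the colour giving the share of the group in percent. Members above the red line were tested (18 ligands on the left, 11 receptors on the right); of those below it, 10 were at 0 in all groups.

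The first comparison, ko against wt, asked which of these genes depend on Runx1 in native GMP. The monocyte receptors Cx3cr1 and Ccr2, the lymphoid homing receptors Ccr7 and Ccr9, the niche receptor Cxcr4 and the ligand Ccl9 were lower in ko GMP, whereas the neutrophil receptors Cxcr1 and Cxcr2 and the ligands Ccl2, Ccl24 and Ccl17 were higher. Of the 30 tested members, 11 (36.7%) passed an adjusted p of 0.05 in limma, against 25.3% of all tested genes. The 5 that were higher made 16.7% of the members, beside 11.5% of all genes, and the 6 that were lower 20.0%, beside 13.8%. The ko and wt arrays did not overlap for 8 members (26.7%), beside 23.3% of all genes. Among these, Cxcr1 passed the detection rule through ko alone, which favours a higher call and a separation. With detection required on all arrays, 2 of 16 members were higher and 5 lower. The median difference was 0.11 over the members and −0.05 over all genes. Receptors and ligands differed in their counts: 2 of 12 receptors were higher and 5 lower, whereas 3 of 18 ligands were higher and 1 was lower. The difference between these counts was not tested.

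Cx3cr1 showed the largest fall among the members. Its probe (chr9:119957811-119957870, mm9) lay at −0.32, −0.56, −2.57 and −3.19 on the ko arrays, against 1.55, 1.67, 1.33 and 0.83 on the wt arrays. Every wt array was above every ko array, and the ko arrays of slide 2 lay below those of slide 1. The difference was −3.01 ± 0.37 (SE), an 8.04-fold fall (adjusted p = 0.000692), and it was smaller on slide 1 (−2.05) than on slide 2 (−3.96). A further tested probe of the gene (chr9:119959018-119959077) gave −2.72 ± 0.34 (adjusted p = 0.000797, in a fit over all probes).

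Ccr2, the receptor of Ccl2 that brings monocytes out of the marrow, measured −0.51, −0.18, −1.25 and −1.64 on the ko arrays, against 0.87, 0.85, 0.34 and −0.30 on the wt arrays. On each slide both ko arrays were below both wt arrays, and the groups overlapped only across slides. It fell by 1.34 ± 0.24 (adjusted p = 0.00497), alike on slide 1 (−1.20) and slide 2 (−1.47).

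Ccr7, which guides dendritic cells and lymphocytes to lymph nodes, lay at −3.94, −3.85, −4.24 and −5.25 in ko, against −2.30, −2.62, −3.19 and −3.05 in wt. The groups did not overlap, and the difference was −1.53 ± 0.36 (adjusted p = 0.0157). Without ko replicate 4, the lowest array, it was −1.31 (adjusted p = 0.0509). Ccr9, which guides T cell precursors to the thymus and lymphocytes to the gut, lay at −5.74, −4.89, −5.63 and −5.85 in ko, against −3.30, −3.72, −4.88 and −4.87 in wt. These groups only just separated, with the wt arrays of slide 2 close to the highest ko array. The difference was −1.34 ± 0.31 (adjusted p = 0.0143), larger on slide 1 (−1.81) than on slide 2 (−0.86).

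Cxcr4, the receptor that holds cells in the marrow niche, measured 0.24, 1.11, −0.78 and −1.58 in ko, against 1.36, 1.31, 0.11 and 0.39 in wt. The ko arrays were the lower ones on each slide, and the groups overlapped across slides. It fell by 1.04 ± 0.27 (adjusted p = 0.0223), a call that ended without the slide term (adjusted p = 0.210), with normexp background correction (0.0503) and without any 1 of 4 arrays (wt replicate 3, wt replicate 4, ko replicate 1 or ko replicate 4; highest 0.0693). Its ligand Cxcl12 did not pass (−0.50 ± 0.78, adjusted p = 0.678) and spread widely, from −4.31 to −3.28 in ko and from −4.41 to −2.64 in wt.

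The neutrophil receptors Cxcr1 and Cxcr2, whose probes start 31.5 kb apart on chromosome 1, both rose in ko GMP. Cxcr1 (chr1:74238359-74238418, mm9) lay at −3.51, −3.72, −3.46 and −2.70 on the ko arrays, against −6.69, −6.93, −5.85 and −5.25 on the wt arrays. All ko arrays were above all wt arrays, and it was well above background on 4 ko and only 2 wt arrays, so the wt level is near the detection limit. It passed the detection rule through ko alone, the group where it was high, so the separation and the call are no independent support for a rise. The difference was 2.83 ± 0.53 (adjusted p = 0.00598; slide 1, 3.19; slide 2, 2.47). With normexp background correction, which compresses low signals, it was 0.59 (adjusted p = 0.400).

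Cxcr2 (chr1:74206886-74206945, mm9) was well above background on all arrays. It measured −0.05, −0.18, −0.64 and −0.82 in ko, against −1.85, −2.19, −1.43 and −1.53 in wt, without overlap. It rose by 1.33 ± 0.28 (2.51-fold, adjusted p = 0.0102), by 1.91 on slide 1 and by 0.75 on slide 2.

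The sequences upstream of 4 members are given because they stand for both patterns, Cx3cr1 and Ccl9 for the receptor and the ligand that were lower both in ko and with RUNX1-ERt2, and the neighbours Cxcr1 and Cxcr2 for the receptors that rose together in ko. Each is the 250 bases before the gene's start (RefSeq, GRCm38.p6), 5′ to 3′ on the gene's strand, with the RUNX motifs TGTGGT and TGCGGT, or their reverse complements ACCACA and ACCGCA, in capitals. They lie at chr9:120068297-120068546 (minus strand), chr11:83578637-83578886 (minus), chr1:74194632-74194881 (minus) and chr1:74153744-74153993 (plus).
Cx3cr1: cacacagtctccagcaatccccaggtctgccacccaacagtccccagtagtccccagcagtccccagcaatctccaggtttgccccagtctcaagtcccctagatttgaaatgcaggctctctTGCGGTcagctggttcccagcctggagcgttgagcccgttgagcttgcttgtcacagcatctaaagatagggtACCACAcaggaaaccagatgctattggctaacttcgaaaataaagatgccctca
Ccl9: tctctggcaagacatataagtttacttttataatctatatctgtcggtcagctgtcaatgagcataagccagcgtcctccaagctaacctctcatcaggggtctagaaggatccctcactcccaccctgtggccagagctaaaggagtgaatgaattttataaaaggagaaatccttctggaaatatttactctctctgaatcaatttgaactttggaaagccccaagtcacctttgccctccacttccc
Cxcr1: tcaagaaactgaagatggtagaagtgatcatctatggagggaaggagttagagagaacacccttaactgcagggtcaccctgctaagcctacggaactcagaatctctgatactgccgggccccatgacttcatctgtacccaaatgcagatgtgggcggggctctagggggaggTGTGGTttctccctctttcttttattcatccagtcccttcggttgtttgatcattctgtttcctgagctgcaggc
Cxcr2: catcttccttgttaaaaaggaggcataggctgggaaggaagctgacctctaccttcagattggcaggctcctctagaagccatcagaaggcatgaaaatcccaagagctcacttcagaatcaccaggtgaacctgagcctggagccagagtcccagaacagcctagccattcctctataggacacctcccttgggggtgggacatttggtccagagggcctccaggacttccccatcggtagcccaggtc

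Cx3cr1 holds TGCGGT starting at base −127 and ACCACA at −54 from its start, Cxcr1 holds TGTGGT at −75, and Ccl9 and Cxcr2 hold neither motif in these windows. The table used holds a promoter for 22 of the 30 tested members, and 6 of these (27.3%) have at least 1 match on either strand, beside 18.6% of 32851 promoters (14.05% with TGTGGT and 5.10% with TGCGGT). The member share counts genes, of which Ccl25, Ccl27a and Ccr6 have more than 1 promoter there, whereas the other share counts promoters. The shares are therefore not like for like. The other 4 are Ccl3, Cxcr3, Cxcr6 and Xcl1, none of which passed in ko against wt. Of the 10 members that passed in either of the first 2 comparisons and have a promoter in the table, 2 (20.0%) have a match. A match describes the letters only.

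Among the ligands, Ccl24, an eosinophil attractant also known as eotaxin-2, rose in ko. It lay at −2.85, −3.23, −4.62 and −5.13 on the ko arrays, against −5.80, −6.59, −5.90 and −5.99 on the wt arrays. The groups did not overlap, the ko arrays of slide 1 were the highest, and only 2 of 4 wt arrays were well above background. The difference was 2.11 ± 0.40 (adjusted p = 0.00602), larger on slide 1 (3.16) than on slide 2 (1.07), and 0.36 (adjusted p = 0.481) with normexp background correction. Its receptor Ccr3, found on eosinophils and basophils, did not pass: it measured −5.56, −5.14, −5.55 and −5.68 in ko, against −3.90, −3.44, −5.73 and −5.14 in wt (−0.93 ± 0.32, adjusted p = 0.063).

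Ccl2, the main ligand of Ccr2, lay at −1.81, −2.42, −0.30 and −0.49 in ko, against −5.21, −3.74, −1.92 and −3.20 in wt. On each slide both ko arrays were above both wt arrays, and wt replicate 3 lay within the range of ko. It rose by 2.26 ± 0.45 (4.80-fold, adjusted p = 0.00747), nearly as much on slide 1 (2.36) as on slide 2 (2.17). The adjusted p was 0.0527 without the slide term, and normexp background correction gave 1.30 (adjusted p = 0.0836).

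Ccl17, which attracts T helper cells through Ccr4, lay at −2.79, −2.90, −0.18 and 0.11 in ko, against −3.33, −3.66, −2.62 and −1.63 in wt. Only the ko arrays of slide 2 stood above the range of wt. The difference of 1.37 ± 0.40 (adjusted p = 0.0361) was 0.65 on slide 1 and 2.10 on slide 2. It did not pass under the replicate block (adjusted p = 0.0694), without the slide term (0.252), with normexp background correction (0.83, adjusted p = 0.243), or without any 1 of 6 of the 8 arrays (wt replicates 2, 3 and 4 and ko replicates 1, 3 and 4; highest 0.108, without ko replicate 4).

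Ccl9, a ligand of Ccr1 known from mice and made by myeloid cells, was bright on every array. It measured 3.46, 3.46, 2.61 and 2.51 in ko, against 3.85, 4.00, 4.11 and 3.77 in wt. No ko array reached a wt array, and the ko arrays of slide 2 were the lowest. It fell by 0.92 ± 0.18 (1.90-fold, adjusted p = 0.00614), less on slide 1 (−0.47) than on slide 2 (−1.38). Ccl6, whose probe starts 13.8 kb away on chromosome 11 and whose product also acts through Ccr1, ranged from −1.30 to 0.11 in ko and from −0.68 to 0.37 in wt (−0.27 ± 0.35, adjusted p = 0.613).

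The inflammatory ligands Ccl3, Ccl4 and Ccl5, which attract monocytes and T cells, spread widely and none passed. Ccl3 lay at −0.68, −1.64, 0.45 and 0.95 in ko, against −0.21, 1.24, 2.66 and 1.29 in wt, with overlap (−1.47 ± 0.89, adjusted p = 0.261). Ccl4 lay at 0.84, −0.30, 0.25 and 1.65 in ko, against −0.61, 0.53, 0.92 and 0.03 in wt (0.39 ± 0.47, adjusted p = 0.586). Ccl5 lay at 0.38, 0.74, 1.54 and 0.59 in ko, against 0.93, 0.39, −1.41 and 0.70 in wt, where 1 array stood low (0.66 ± 0.61, adjusted p = 0.469).

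Of the members that did not pass in ko against wt, the differences ran from −1.47 for Ccl3 to 0.99 for Xcl1, and the adjusted p from 0.0513 for Ccl1 (0.32 ± 0.10) to 0.919 for Cxcr3. Members varied more between arrays of a group than most genes: the median SD was 0.51 in ko and 0.65 in wt, beside 0.23 and 0.22 over all tested genes. These SDs include the difference between slides, which the slide term of the test takes out. The median SD of the receptors was 0.545 in ko and 0.673 in wt, beside 0.513 and 0.562 for the ligands. The widest were Ccl17 in ko (SD 1.63), where the slides lay apart, and Xcl1 in wt (SD 2.04), well above background on 3 of 4 wt arrays.

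**Figure D2:**
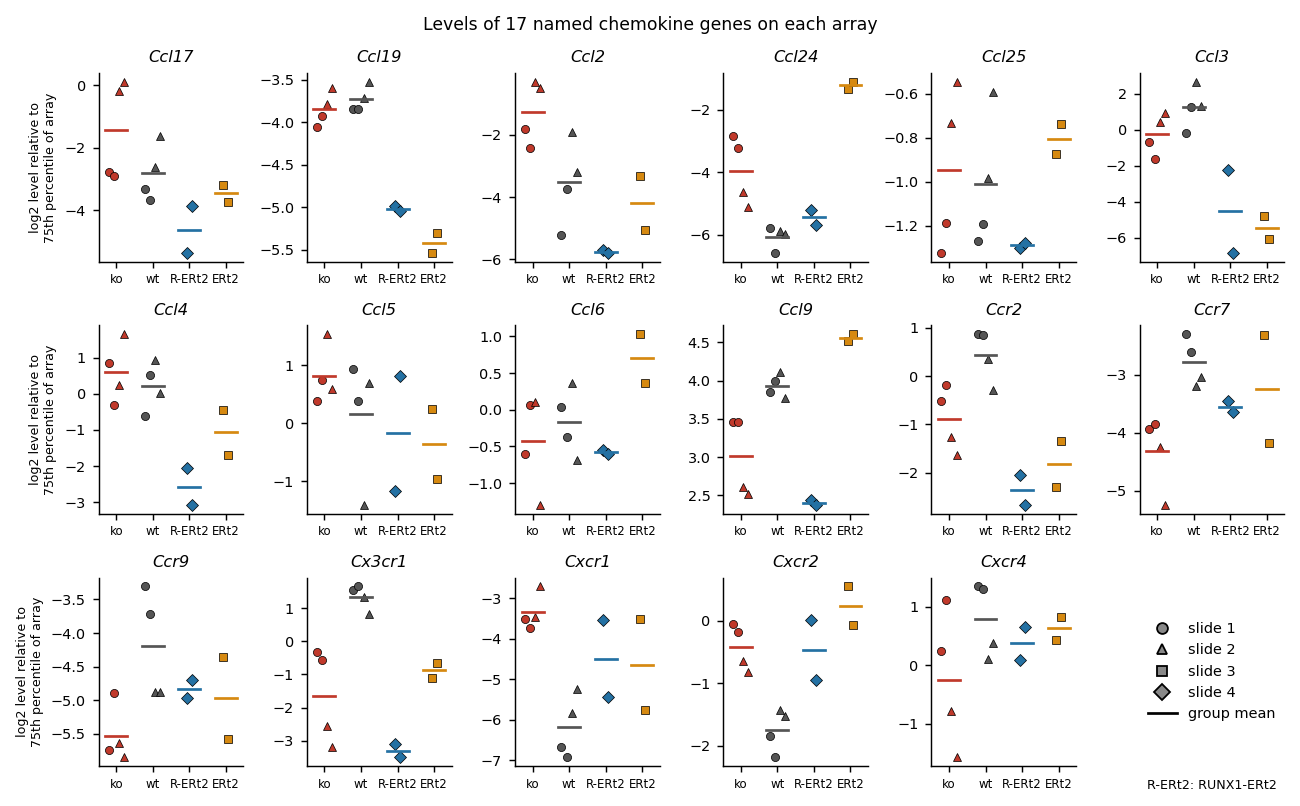
Log2 level relative to the 75th percentile of the array for 17 members, ligands first and then receptors, with 1 point per array, a line at the group mean and the marker shape giving the slide. Cx3cr1, Ccr7, Ccr9 and Ccl9 of ko lie wholly below wt and Cxcr1, Cxcr2 and Ccl24 wholly above; with RUNX1-ERt2, Ccl24, Ccl9 and Cx3cr1 lie below ERt2.

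The direction was the same on slide 1 and slide 2 for 24 of the 30 members, beside 74.4% of all tested genes. It was also the same for the 11 called members, which a call from a fit over both slides favours, so this is no separate check. With only the 4 arrays of slide 2, however, 1 member passed (Cx3cr1), and with only those of slide 1, 10 did: 8 of the 11 (without Ccl2, Ccl17 and Cxcr4) and 2 that did not pass over both slides (Ccr3 and Cxcl10). Both fits rest on 2 arrays of ko and 2 of wt.

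**Figure D3:**
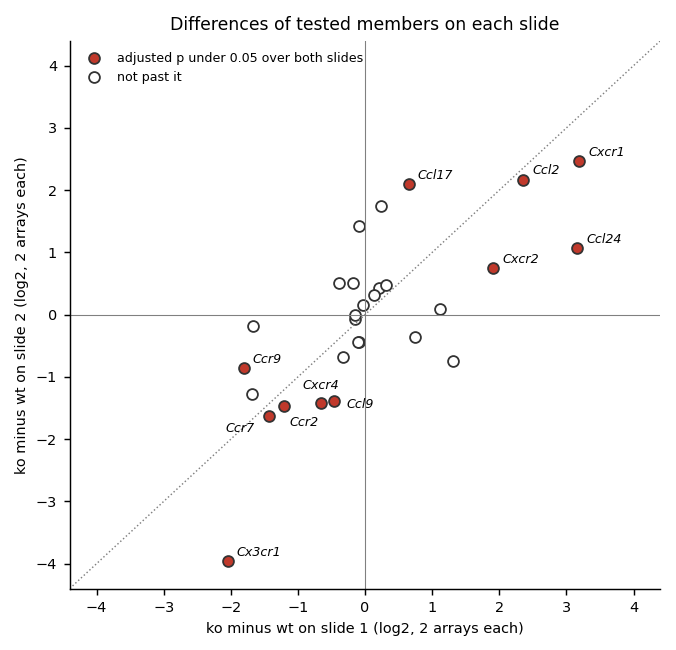
Difference of ko minus wt (log2) of each of 29 tested members on slide 1 (horizontal) and slide 2 (vertical), 2 arrays a group on each slide; filled points passed an adjusted p of 0.05 over both slides and the dotted line marks equal differences. All 11 filled points lie at the lower left or the upper right, Cx3cr1 at −2.05 and −3.96 and Cxcr1 at 3.19 and 2.47.

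The second comparison, RUNX1-ERt2 against ERt2, asked what activated RUNX1 does to these genes in transplanted Runx1-deleted GMP. The ligands Ccl24 and Ccl9 and the receptor Cx3cr1 were lower with RUNX1-ERt2, with small changes of Ccl25 (lower) and Ccl19 (higher). Of the 30 members, 5 (16.7%) passed in limma, against 19.1% of all genes. Only 1 was higher (3.33%, beside 10.2%), and 4 were lower (13.3%, beside 8.87%). The arrays did not overlap for 13 members (43.3%), beside 58.9% of all genes, a share that is high because there are 2 arrays a group. The median difference was −0.46 over the members and 0.00 over all genes.

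Ccl24 was at −5.20 and −5.70 with RUNX1-ERt2, against −1.33 and −1.10 with ERt2. Both RUNX1-ERt2 arrays, 1 of them well above background, lay between the ranges of ko and wt, and both ERt2 arrays above every ko array. The difference was −4.23 ± 0.57 (18.8-fold lower, adjusted p = 0.000983). Its receptor Ccr3 was on no RUNX1-ERt2 array well above background, at −6.11 and −5.64, against −4.11 and −4.76 with ERt2, which is at least 2.00-fold lower and did not pass (−1.44 ± 0.45, adjusted p = 0.0563).

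Ccl9 was at 2.44 and 2.37 with RUNX1-ERt2, against 4.52 and 4.61 with ERt2. The arrays of each group lay close together, and the difference was −2.16 ± 0.25 (4.46-fold lower, adjusted p = 0.000428). Cx3cr1 was at −3.10 and −3.51, against −1.10 and −0.65 with ERt2, a difference of −2.42 ± 0.52 (5.36-fold lower, adjusted p = 0.011). Its further probe gave −2.56 ± 0.48 (adjusted p = 0.00588, over all probes). The call for Cx3cr1 ended without the slide term (adjusted p = 0.0837) and when replicate 2 of RUNX1-ERt2 (0.0677) or of ERt2 (0.0675) was left out.

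Ccl25, the ligand of Ccr9, was at −1.30 and −1.28 with RUNX1-ERt2, against −0.88 and −0.74 with ERt2 (−0.48 ± 0.15, adjusted p = 0.0482). Its further 2 probes gave −0.61 each and did not pass (adjusted p = 0.0643 and 0.0667, over all probes). In that fit the probe used did not pass either (adjusted p = 0.0525). Ccl19, a ligand of Ccr7, was at −4.99 and −5.05 with RUNX1-ERt2, against −5.54 and −5.31 with ERt2, where no array was well above background, so that it was at least 1.12-fold higher (0.41 ± 0.12, adjusted p = 0.0482). Its further probe gave −0.04 ± 0.15 (adjusted p = 0.907, over all probes, where the probe used had 0.0538). This stretch of mouse chromosome 4 carries duplicated copies of the Ccl19, Ccl21 and Ccl27 genes. The replicate block gave Ccl19 an adjusted p of 0.0668, and either call ended on leaving out most single arrays (RUNX1-ERt2 replicate 1 or 2, ERt2 replicate 1 and, for Ccl25, ERt2 replicate 2; highest 0.199 for Ccl25 and 0.243 for Ccl19). The call for Ccl19 also ended under quantile normalization (adjusted p = 0.113) and with arrays set to their median (0.171), and normexp background correction gave a difference of 0.013. The call for Ccl25 also ended without the slide term (adjusted p = 0.322) and with normexp background correction (0.222).

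The other members called in ko did not pass with RUNX1-ERt2. Cxcr1 was at −3.53 and −5.45, against −3.52 and −5.76 with ERt2 (0.15 ± 0.76, adjusted p = 0.922). Cxcr2 was at 0.02 and −0.94, against 0.56 and −0.06 (−0.71 ± 0.40, adjusted p = 0.272). For Cxcr1 each group held 1 high array, well above background, and 1 low array that was not, and for Cxcr2 the groups overlapped. Ccl2 was at −5.71 and −5.80 with RUNX1-ERt2, well above background on neither array. It was at −3.32 and −5.06 with ERt2, where 1 array was (−1.57 ± 0.64, adjusted p = 0.126). Neither group was detected throughout, so no fold is given. Ccl17 was at −5.38 and −3.88, against −3.19 and −3.74 (−1.16 ± 0.57, adjusted p = 0.202). Ccr2 differed by −0.55 ± 0.34 (adjusted p = 0.323), Ccr7 by −0.30 ± 0.51 (0.757), Cxcr4 by −0.26 ± 0.38 (0.708) and Ccr9 by 0.14 ± 0.44 (0.871). With 2 arrays a group, a p that misses the threshold does not show that these levels were alike.

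Of the remaining ligands, Ccl6 was at −0.54 and −0.60 with RUNX1-ERt2, against 1.03 and 0.37 with ERt2 (−1.27 ± 0.49, adjusted p = 0.109). Ccl4 was at −2.06 and −3.08, against −0.46 and −1.68 (−1.50 ± 0.67, adjusted p = 0.159). Both separated the 2 groups without passing. Ccl3 was at −2.22 and −6.85, against −4.78 and −6.09 (0.90 ± 1.25, adjusted p = 0.691), and Ccl5 at −1.17 and 0.82, against 0.24 and −0.96 (0.19 ± 0.86, adjusted p = 0.915). In these 2 ligands the arrays of a group were further apart than the groups.

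**Figure D4:**
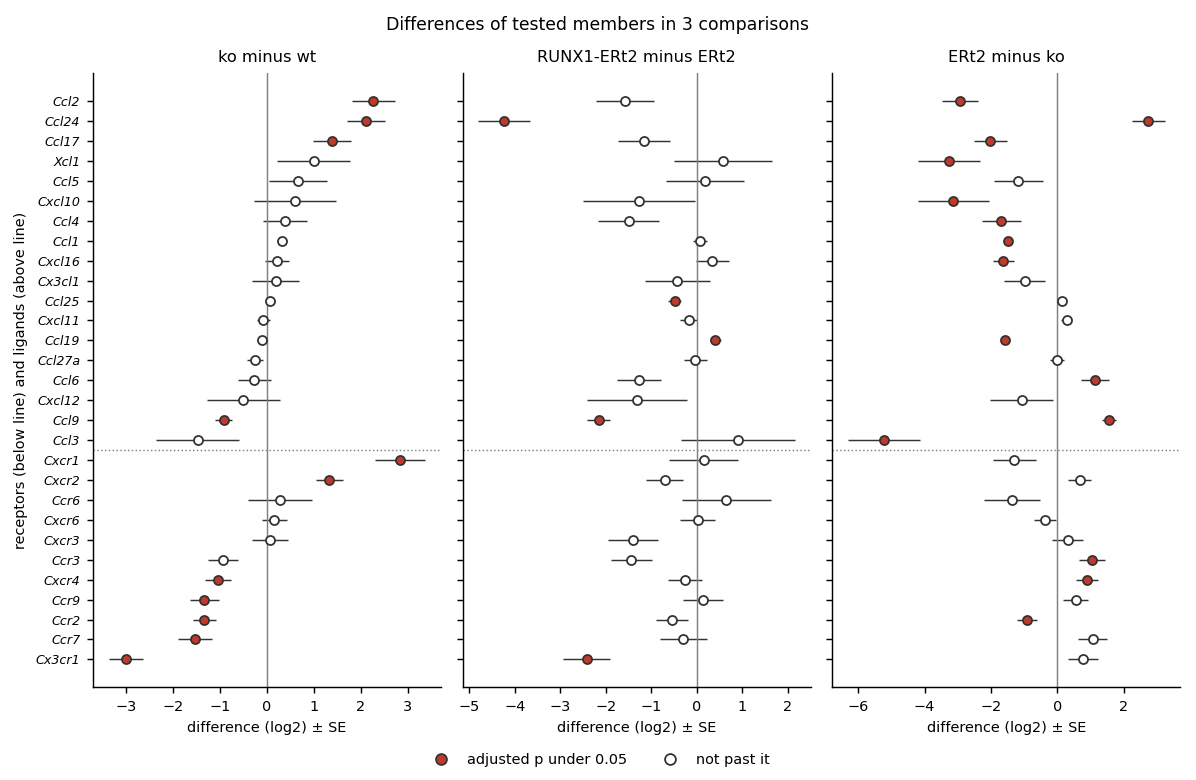
Difference (log2) with its SE from the limma fit for each of 29 tested members, in ko minus wt (left), RUNX1-ERt2 minus ERt2 (middle) and ERt2 minus ko (right), ligands above and receptors below the dotted line; filled points passed an adjusted p of 0.05. Ccl24 lies at 2.11 on the left and −4.23 in the middle, whereas Cx3cr1 lies at −3.01 and −2.42.

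Set side by side, 3 members passed in both comparisons: Ccl24 was higher in ko and lower with RUNX1-ERt2, and Ccl9 and Cx3cr1 were lower in both. That is 27.3% of the members called in the first comparison and 60% of those called in the second. Over all genes, 1175 passed in both, 25.9% and 34.4% of the calls, with opposite directions in 814 (69.3%) and the same direction in 361. So 1 of 3 members, beside 69.3% of genes, moved in opposite directions, which with 3 members sets no rate for them. The comparisons use different arrays.

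The third comparison, ERt2 against ko, set transplanted against native Runx1-deleted GMP, which differ in transplantation, irradiation of the host, retrovirus, 5-fluorouracil, tamoxifen and slide together. It shares the ko arrays with the first comparison and the ERt2 arrays with the second. Of the 30 members, 15 (50%) passed in limma, against 56.9% of all genes: 5 were higher (16.7%, beside 30.2%) and 10 lower (33.3%, beside 26.7%), and the arrays did not overlap for 14 (46.7%, beside 63.0%). The median difference was −0.64 over the members and 0.06 over all genes. Setting each array to its median in place of the 75th percentile shifted all genes by 0.19 in this comparison and gave 8 higher and 9 lower members. Some of the lower members, Ccl1 and Xcl1 among them, passed the detection rule through native arrays alone, which favours a lower call. With detection required on all arrays, 3 of 16 members were higher and 3 lower.

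Of the 10 lower members 9 were ligands. Ccl3, at −4.78 and −6.09 with ERt2 (1 array well above background) and from −1.64 to 0.95 in ko, fell by 5.21 ± 1.09 (adjusted p = 0.00308). Cxcl10, an interferon-induced ligand of Cxcr3, was at −3.72 and −3.21 with ERt2 and from −1.02 to 1.01 in ko (−3.13 ± 1.07, adjusted p = 0.032). Ccl2 fell by 2.93 ± 0.55 (adjusted p = 0.00177), Ccl17 by 2.03 ± 0.50 (0.00706) and Ccl4 by 1.68 ± 0.58 (0.0323). For Xcl1, a ligand made by NK and T cells, and Ccl1, no ERt2 array was well above background, so that they were at least 3.13-fold and at least 1.37-fold lower (adjusted p = 0.0154 and 1.59e-05). Ccl19 was at least 2.54-fold lower (adjusted p = 3.27e-06), whereas its further probe did not pass (−0.12 ± 0.13, adjusted p = 0.439, over all probes) and normexp background correction gave −0.33 (adjusted p = 0.514), and Cxcl16, well above background on 1 ERt2 array, fell by 1.63 ± 0.31 (adjusted p = 0.00198).

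Ccl24 (2.74 ± 0.49, adjusted p = 0.00133), Ccl9 (1.55 ± 0.22, adjusted p = 0.000315), Ccl6 (1.13 ± 0.43, adjusted p = 0.0458) and the receptors Ccr3 (1.04 ± 0.39, adjusted p = 0.0464) and Cxcr4 (0.88 ± 0.33, adjusted p = 0.0452) were higher with ERt2 than in ko. Beside them, 10 of 15 monocyte and macrophage markers (2 lower) and 5 of 14 eosinophil, basophil and mast cell markers (1 lower) were higher with ERt2. Of all genes, 30.2% were higher and 26.7% lower. Late neutrophil markers (10 of 15) and GMP and promyelocyte markers (12 of 16) were also higher, and the part of any of these cells was not tested. The call for Cxcr4 ended under the replicate block (adjusted p = 0.0567). Ccr2 was lower (−0.91 ± 0.30, adjusted p = 0.0261), a call that ended with arrays set to their median (adjusted p = 0.104). Leaving out single arrays ended the calls of Ccl6 (highest adjusted p = 0.264, without ERt2 replicate 1), Ccr2 (0.274, without ERt2 replicate 1), Cxcr4 (0.239, without ERt2 replicate 2), Ccl4 (0.258, without ERt2 replicate 2) and Ccl17 (0.0651, without ERt2 replicate 2).

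Ligands and their receptors were also set side by side. Of 16 textbook pairs, both partners were tested in 12. In ko against wt, both partners passed in 1 pair, Ccl2 (2.26) and Ccr2 (−1.34), in opposite directions; in 5 pairs 1 partner passed and in 6 neither did. The receptor alone passed for Ccl19 and Ccr7, Ccl25 and Ccr9, Cxcl12 and Cxcr4, and Cx3cl1 and Cx3cr1, each time lower, and the ligand alone for Ccl24 and Ccr3. With RUNX1-ERt2 no pair had both partners past the threshold. In the remaining 4 pairs the partner was not tested: Ccl1 with Ccr8, Ccl17 with Ccr4, Ccr6 with Ccl20, and Xcl1 with Xcr1.

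Many members lie in gene clusters, and the calls in ko are given for each. They stand beside 11.5% of all tested genes higher and 13.8% lower, and whether neighbours moved together was not tested. In the cluster of CC ligands on chromosome 11 (chr11:81850650-83478111, mm9), 7 of 11 members were tested, and in ko 1 was higher (Ccl2) and 1 lower (Ccl9). In the receptor cluster on chromosome 9 (chr9:123680935-124041306), 5 of 7 were tested and 2 were lower in ko (Ccr9 and Ccr2). In the CXC ligand cluster on chromosome 5 (chr5:91190490-92788699), 2 of 8 were tested and neither passed in ko.

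For 7 members more than 1 probe was tested (16 probes in all), and beside Ccl19 they differed in Ccl25, Ccl27a and Cxcl11. For Ccl25, ERt2 minus ko was 0.14 ± 0.13 by the probe used and 0.55 ± 0.17 and 1.17 ± 0.17 by the others (adjusted p = 0.0223 and 0.000469). For Ccl27a, a skin-homing ligand, the third probe (chr4:41720610-41720669) fell in ko by 0.88 ± 0.15 (adjusted p = 0.00385) while the others gave −0.26 and −0.18. Of the Cxcl11 probes the one used, at 7.45 on average over the arrays, gave 0.28 ± 0.17 for ERt2 minus ko, and the other −2.67 ± 0.31 (adjusted p = 0.000108). Which of them measures Cxcl11 was not tested.

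The genes that carry the receptors' signal were read beside them. The counts for this and the following gene lists stand beside 11.5% of all genes higher and 13.8% lower in ko. With RUNX1-ERt2 the shares of all genes were 10.2% higher and 8.87% lower. Of 36 tested genes of chemokine receptor signal transduction, 9 were higher and 3 lower in ko, with Gng11 (2.65 ± 0.20, adjusted p = 6.57e-05) and Gnb4 (2.26 ± 0.27, adjusted p = 0.000625), subunits of heterotrimeric G proteins, the largest rises and Lsp1 (−1.25 ± 0.29, adjusted p = 0.0153), an actin-binding protein of leukocytes, the largest fall. Gng11 was at 3.66, 3.58, 3.28 and 3.47 in ko, against 0.80, 0.53, 0.98 and 1.07 in wt, without overlap. With RUNX1-ERt2, 4 were higher and 12 lower, Gng11 among the latter (−1.08 ± 0.29, adjusted p = 0.0305), with the Src family kinase Fgr (−1.94 ± 0.55), the Rac activator Tiam1 (−1.35 ± 0.20) and the phospholipase Plcb2 (−1.30 ± 0.18).

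Of 18 tested genes of receptor desensitisation, the arrestins, receptor kinases and RGS proteins that end G protein signals, 9 were higher and 1 lower in ko. Rgs1 rose by 1.83 ± 0.45, Rgs10 by 0.84 ± 0.13, the arrestin Arrb1 by 0.71 ± 0.12 and the receptor kinase Grk3 by 0.65 ± 0.20 (adjusted p at most 0.0452). Arrb1 lay at 3.26, 3.14, 3.69 and 3.52 in ko, against 2.76, 2.64, 2.59 and 2.78 in wt, without overlap. With RUNX1-ERt2, 2 were higher, Grk5 (1.28 ± 0.21) and Rgs13 (at least 1.32-fold, as no ERt2 array was well above background) and 3 lower, among them Rgs14 (−2.28 ± 0.13) and Arrb1 (−1.10 ± 0.17). The shares of all genes called in either direction were 25.3% in ko and 19.1% with RUNX1-ERt2.

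Only 2 of 7 atypical and decoy receptors were tested. Ackr1, which binds many chemokines without signalling and is known from erythroid and endothelial cells, was at −2.87 and −2.85 with RUNX1-ERt2, against −7.48 and −7.33 with ERt2, where no array was well above background and it was at least 5.01-fold higher (4.54 ± 0.41, adjusted p = 0.000105). Of 13 tested receptors for other attractants, 3 were higher and 2 lower in ko, among them the sphingosine phosphate receptors S1pr1 (1.51 ± 0.36, adjusted p = 0.0154) and S1pr3 (−2.08 ± 0.20, adjusted p = 0.000195). With RUNX1-ERt2 1 was lower, Ptafr, the receptor of platelet-activating factor, at least 4.93-fold lower as no RUNX1-ERt2 array was well above background (−2.45 ± 0.23, adjusted p = 0.00013). Of 18 genes that cut or bind chemokines, 1 was higher and 3 lower in ko, among the latter Dpp4 (−1.20 ± 0.23, adjusted p = 0.00621), a peptidase that trims the start of many chemokines, and Ctsg (−0.74 ± 0.23, adjusted p = 0.0452), a granule protease. With RUNX1-ERt2 2 were higher, among them Dpp4 (1.79 ± 0.32, adjusted p = 0.00484), and 3 lower, among them Sdc1 (−2.34 ± 0.36), Elane (−2.38 ± 0.52) and Ctsg (−1.41 ± 0.33). The last list held 8 genes of chemokine-like and related proteins under other symbols, not all of them ligands. Of these, 2 were higher and 1 lower in ko, with Cmtm8 (0.94 ± 0.09) higher and Mif (−0.70 ± 0.13) lower. Cmtm8 was also higher with RUNX1-ERt2 (0.52 ± 0.13, 1 of the 8).

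Several members are also markers of cells that a GMP sort could hold, and in bulk RNA fewer cells of a type and less RNA per cell cannot be told apart. The counts for marker lists stand beside 11.5% of all genes higher and 13.8% lower in ko, and 10.2% higher and 8.87% lower with RUNX1-ERt2. Beside Cx3cr1, Ccr2 and Ccl9, the 15 tested markers of monocytes and macrophages had a summed level (the 75th percentile of the array taken as 1) of 12.2 to 29.5 in ko and 20.1 to 38.5 in wt, with 0 higher and 2 lower in ko (Mpeg1, −1.60 ± 0.41, and Ly86, −1.49 ± 0.38). With RUNX1-ERt2 the sum was 8.09 to 14.1, against 54.4 to 55.9 with ERt2, and 9 of the 15 were lower, among them Csf1r (−2.44 ± 0.42), Vcam1 (−3.72 ± 0.61) and Mrc1 (−2.82 ± 0.36). The sums were 29.5, 28.6, 16.6 and 12.2 in ko, against 36.8, 37.4, 38.5 and 20.1 in wt, so that both ko arrays were below both wt arrays on each slide and the ranges overlapped only across slides. They did not overlap between RUNX1-ERt2 and ERt2, and each of these markers was well above background on at least 1 array.

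Beside Ccr7, 12 dendritic cell markers summed to 76.5 to 106 in ko and 94.1 to 122 in wt, with 5 lower in ko (among them Cd74, −1.74 ± 0.38, and Itgax, −1.35 ± 0.30). Without Siglech, the brightest of them, the sum was 19.7 to 28.8 in ko and 29.3 to 41.5 in wt, without overlap. Xcr1 was well above background on no array, and with RUNX1-ERt2 the sum of the 12 was 92.9 to 93.4, against 89.0 to 97.3 with ERt2 (1 higher and 1 lower). Beside Ccr9, Ccr7, Ccl5 and Xcl1, 13 markers of T and NK cells summed to 10.9 to 17.3 in ko and 23.8 to 36.4 in wt, with 2 lower (Nkg7, −1.38 ± 0.19, and Lck, −1.31 ± 0.25). Most of that sum was Nkg7, at 7.19 to 11.4 in ko and 17.7 to 32.8 in wt. The other 12 overlapped (3.71 to 5.95 in ko and 3.62 to 6.08 in wt), and the list's median difference was 0.23, opposite in sign to its sum. Beside Cxcr1 and Cxcr2, 15 late neutrophil markers summed to 33.8 to 295 in ko and 59.1 to 296 in wt, with none past the threshold in ko against wt or with RUNX1-ERt2 (135 to 154, against 552 to 687 with ERt2). Beside Ccl24 and Ccr3, 14 markers of eosinophils, basophils and mast cells summed to 64.2 to 102 in ko and 50.9 to 79.2 in wt, with 2 higher and 5 lower (among them Prss34, −8.10 ± 0.56, and Mcpt8, −3.34 ± 0.12). Without Cpa3, the brightest of them, the sum was 31.4 to 74.8 in ko and 40.9 to 66.1 in wt. The list's median difference was −0.37. With RUNX1-ERt2 the 14 markers summed to 58.6 to 72.6, against 137 to 153 with ERt2, with 3 higher and 4 lower. Among the higher were Prss34 (3.29 ± 0.79) and Ms4a2 (2.71 ± 0.28), and among the lower the eosinophil granule genes Prg2 (−3.32 ± 0.93) and Prg3 (−3.06 ± 0.83). The list's median difference with RUNX1-ERt2 was −0.014.

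**Figure D5:**
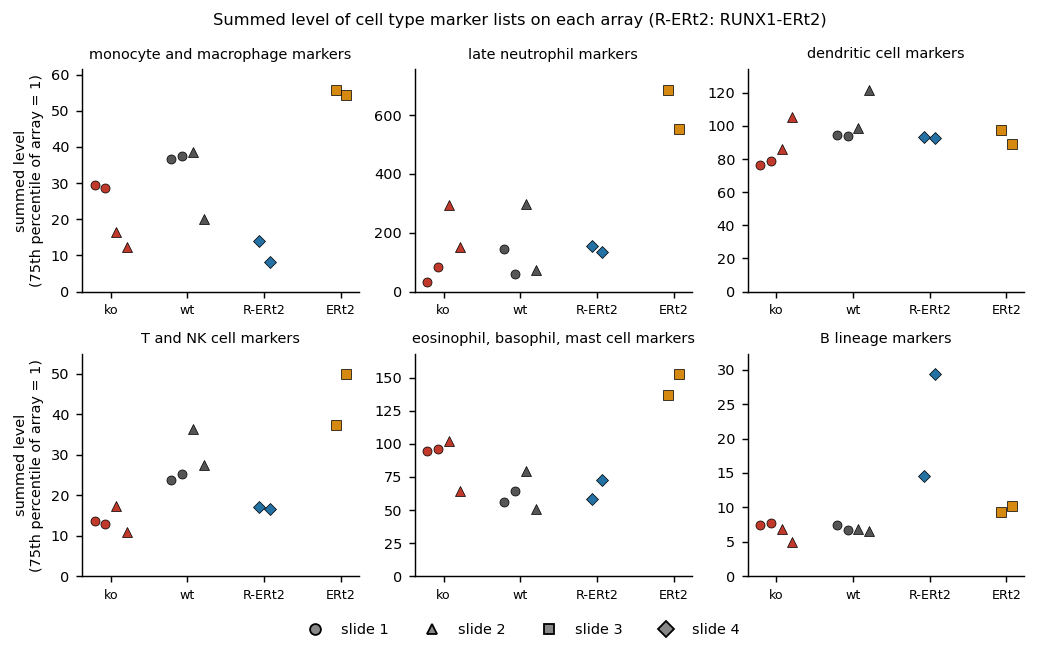
Summed linear level of 6 lists of cell type markers on each array (the 75th percentile of the array is 1), with groups on the horizontal axis and the marker shape giving the slide. The T and NK sums, mostly Nkg7, are 10.9 to 17.3 in ko and 23.8 to 36.4 in wt (3.71 to 5.95 and 3.62 to 6.08 without it), and the monocyte and macrophage sums with RUNX1-ERt2 (8.09 to 14.1) below those with ERt2 (54.4 to 55.9).

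The other lists were read the same way. The 16 tested GMP and promyelocyte markers summed to 457 to 597 in ko and 691 to 954 in wt (3 higher and 6 lower), and to 544 to 758 with RUNX1-ERt2, against 1035 to 1169 with ERt2 (7 lower). Megakaryocyte and platelet markers summed to 53.1 to 69.1 in ko and 11.96 to 18.1 in wt (7 of 14 higher), erythroid markers to 29.3 to 85.2 and 29.9 to 61.1 (4 of 11 higher and 1 lower), B lineage markers to 5.01 to 7.74 and 6.62 to 7.43 (1 of 10 lower), and stroma and endothelium markers to 5.93 to 8.08 and 7.50 to 10.5 (1 of 7 higher and 1 lower). Of the last list Col3a1, Pdgfra and Cdh5 were well above background on no array. With RUNX1-ERt2, B lineage markers summed to 14.6 to 29.3, against 9.36 to 10.2 with ERt2 (2 higher and 1 lower, median difference 0.31). Without Cd79b, the brightest of them, the sum was 9.05 to 24.3, against 0.77 to 0.96. Erythroid markers summed to 129 to 165, against 85.5 to 156 (2 higher, median difference 1.93). Without Hba-a1, their brightest, the sum was 65.8 to 96.0, against 15.1 to 36.2, without overlap. T and NK markers summed to 16.6 to 17.1, against 37.4 to 49.9 (1 higher and 1 lower). Without Nkg7 they summed to 2.24 to 3.53, against 1.88 to 1.99, and the list's median difference was 0.67. Megakaryocyte and platelet markers summed to 18.3 to 54.9, against 18.1 to 38.2 (1 higher and 3 lower). Stroma and endothelium markers summed to 3.91 to 4.25, against 3.54 to 3.92 (0 called). In ERt2 against ko, where 30.2% of all genes were higher and 26.7% lower, 10 of 15 monocyte and macrophage markers were higher and 2 lower, 10 of 15 late neutrophil markers higher and 1 lower, and 12 of 16 GMP and promyelocyte markers higher. Of the T and NK markers 1 was higher and 8 lower, of the dendritic cell markers 6 higher and 1 lower, and of the eosinophil, basophil and mast cell markers 5 higher and 1 lower. The part of these cells in the members' differences was not tested.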

How the data were processed

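Each array holds Cy3 intensity values, the processed signal of Agilent Feature Extraction, which the authors deposited as scanner output after background subtraction (version 10.7.3.1 per the file headers, 9.1 per the submitters' processing notes). The deposited value table holds the same signal as a ratio to a constant of each array: its columns, with medians of 0.91 to 0.94, fit processed signal over the array's median, its gene identity came from the probe column, and each ko and wt column matched another replicate of its own group (1 with 3, 2 with 4), so it served as an alternative only. If the scanner files rather than the table carry the exchange, the replicate numbers printed for ko and wt, and with them the slide of each number, are exchanged in the same way, within each group.

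Flagged spots (129 to 207 an array) were left out, spots of a probe averaged, and log2 signal set relative to the array's 75th percentile (all computed here with Python 3.11.15, pandas 2.3.3 and numpy 2.4.6; figures with matplotlib 3.10.9). The marks of the software decided detection, taken for a probe from at least 50% of its spots. Of 39429 probes, 23469 were tested, as 17905 genes (the brightest probe of each symbol, of which 14278 are in the RefSeq table for GRCm38.p6). Probe names came from the accession for 27234 probes, the symbol for 3576, a synonym for 565 and the file alone for 8054. One limma fit (3.58.1 in R 4.3.3) of the 4 groups with slide as a term for ko and wt gave all tests (7 residual and 2.11 prior degrees of freedom), with Benjamini-Hochberg adjustment over all 17905 genes and a threshold of 0.05. "At least" folds compare the bright group with the lowest signal well above background, or the dim probe's own where higher. The number of arrays limits the precision. The script was tested on simulated data.

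The members past the threshold in either of the first 2 comparisons, with Cxcr2, Cxcr4, Ccr2, Cx3cr1, Ccl9, Ccl6, Ccl3, Ccl4 and Ccl5 whatever their p (17 in all), are given on every array, and others where a result turns on them; the members, lists and ligand-receptor pairs were chosen with earlier results of these data known. Same-numbered ko and wt arrays deviated together (correlations 0.37, 0.35, 0.18 and 0.67), and the replicate block takes the numbers to pair them. Differently numbered ko and wt arrays of the same slide gave 0.45 and 0.32 on slide 1 and −0.06 and 0.21 on slide 2. As same-numbered arrays also share a slide, pairing by number and a shared slide cannot be told apart by these values. The pairing comes from the data. Probe positions are those of the files (mm9), no annotation of which was used here. Alternatives were background correction (normexp, offset 50), scaling, filters, the slide term, the replicate block, the samples fitted and leaving out arrays. A few genes are not reported here, although the counts include them.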

Additional observations from a re-analysis of the deposited data

Results flagged for a closer look

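In 2 of the 60 groups of 4 native arrays checked (30 members in ko and in wt; 3.33%), 1 array lay far from the others, and chance marks about 5% of such groups. Both were wt replicate 3, as numbered by the scanner files. Its level of Cxcl10, the interferon-induced ligand of Cxcr3, was 1.35, against −1.87 to −1.40 on the other wt arrays. Its level of Xcl1, the NK and T cell ligand, was −7.58, against −3.72 to −3.28 on the other wt arrays. Neither gene passed in ko against wt.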

How the results depend on the processing

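Of the 11 members called in ko against wt, Cx3cr1 alone passed under all alternatives run, with Ccl24 and Ccl9 of the 5 in RUNX1-ERt2 against ERt2, and Ccl2, Ccl24, Ccl3 and Ccl9 of the named ones in ERt2 against ko. In ko against wt, 6 members passed with normexp background correction (1 higher and 5 lower), 7 of 16 when detection on all arrays was required, and 1 on slide 2 alone; without single arrays, 8 to 12 did. In RUNX1-ERt2 against ERt2, 3 passed with normexp background correction, with no filter, with detection on all arrays, with only the 2 groups fitted and with every probe tested, and 2 without the slide term; without single arrays, 3 to 5 did. Quantile normalization, array medians and the deposited ratios gave 0 higher and 5 lower. In ERt2 against ko, 8 passed with normexp background correction and 6 of 16 with detection on all arrays, and without single arrays 10 to 15 did; array medians gave 8 higher and 9 lower and the deposited ratios 7 higher and 9 lower, with all genes shifted by 0.19 and 0.18. Normexp shifted all genes by −0.10 in ko against wt. With the replicate block, 10, 5 and 14 members passed in the 3 comparisons, and of the named members the block ended the calls of Ccl17 (ko against wt), Ccl19 (RUNX1-ERt2 against ERt2) and Cxcr4 (ERt2 against ko) and no other. Crossed numbers of the transplanted arrays, whose same-numbered correlation was −0.19, gave 6, an alternative chosen after seeing the data.

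No called difference turned its sign. Of those not called, on slide 1 alone Ccl25 was −0.025 and Ccl5 −0.10 in ko against wt, and with normexp background correction Ccr9 was −0.052 and Cxcr1 −0.024 in RUNX1-ERt2 against ERt2. Without single arrays, Ccl25 ran from −0.034 (without wt replicate 3) to 0.12 and Ccl6 from −0.52 to 0.048 (without ko replicate 4) in ko against wt. In RUNX1-ERt2 against ERt2, Ccl3 ran from −1.41 (without RUNX1-ERt2 replicate 1) to 3.22, Ccl5 from −0.81 (without RUNX1-ERt2 replicate 2; −0.42 without ERt2 replicate 2) to 1.18, Ccr7 from −1.23 to 0.63 (without ERt2 replicate 1), and Ccr9 from −0.47 (without ERt2 replicate 2) to 0.75. Cxcr1 ran from −0.97 (without ERt2 replicate 2; −0.81 without RUNX1-ERt2 replicate 1) to 1.27, and Cxcr4 from −0.54 to 0.018 (without RUNX1-ERt2 replicate 1). In ERt2 against ko, Ccr9 ran from −0.053 (without ERt2 replicate 1) to 1.17. The cause of these changes was not tested. A lone array left in a group is assumed to vary like the others. Members near background, Ccl24, Cxcr1 and Ccl19 among them, are limited by signal over background.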
